A study of Mus musculus with 2 samples.

Results

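The cells described here are the conventional type 1 dendritic cells (cDC1) of mouse MC38 tumors. A cell was counted as a cDC1 when its barcode held at least 500 genes and at most 20% mitochondrial unique molecular identifiers (UMIs, each the count of 1 captured RNA molecule), at least 2 UMIs of Xcr1 and Clec9a together, less than 0.1% of its UMIs from C1qa, C1qb and C1qc, and no UMI of Cd3d, Cd3e or Cd3g. By this rule 52 of 28002 cells in the series were cDC1. The untreated library held 50 of them and the MSA-2 library held 2. Because the cells were chosen by their Xcr1 and Clec9a counts and by low C1q and Cd3 counts, these genes describe the selection and support nothing else.

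MC38 is a murine colon adenocarcinoma line, here grown under the skin of C57BL/6 mice that were 6 to 8 weeks old when they received the cells. The study set out to see what the STING agonist MSA-2, a small molecule given in 3 intratumoral doses at intervals of 3 days, does to the cells of the tumor. The control tumors are labelled untreated; the study's methods describe them as given saline, and the series' design text describes their vehicle as saline with DMSO. The cells were sorted before capture, by a gate not given in the sources used here. The tumors of 3 mice were pooled into 1 library per condition, so each condition is 1 sample. For that reason no p value can be given, and all intervals below are exact 95% intervals for counting error only: they do not cover the difference between mice or between libraries.

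cDC1 are the dendritic cells that take up dead-cell material, keep it from full degradation and present it on MHC class I to CD8+ T cells, a route called cross-presentation. They arise under the transcription factors IRF8, BATF3 and ID2, respond to FLT3 ligand, carry the chemokine receptor XCR1 and bind exposed actin filaments of dead cells through CLEC9A. Their counterparts, cDC2, depend more on IRF4, ZEB2 and KLF4, and mainly present to CD4+ T cells. On leaving the tissue, dendritic cells of either kind switch on a shared maturation program with CCR7 and FSCN1.

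The 50 untreated cDC1 were deep cells, with 2576 UMIs in the shallowest, a median of 10927 and 40777 in the deepest. Scrublet, a caller of droplets that hold 2 cells, marked 705 of the 14039 kept untreated cells and 5 of the 50 cDC1. These 5 cells held 3424 CPM (UMIs of a gene per 1000000 UMIs) of a list of 10 genes abundant in deep cells without Ptprc (over 15000 UMIs, no Ptprc UMI and under 20 UMIs each of Cd74 and Col3a1), against 453 CPM in the other 45 cDC1 and 4905 CPM in those deep cells. That list was chosen after its values were seen, and no cDC1 was dropped because of it. Of 25 cDC1 genes that the gate had not used, the 5 Scrublet calls carried 2929 CPM and the other 45 cDC1 carried 8786 CPM. Of the kept barcodes, 44 occurred in both libraries, and 0 of the 52 cDC1 barcodes was among them.

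The gate was reached in steps. In the untreated library 85 cells had at least 2 UMIs of Xcr1 and Clec9a. The C1q limit removed 24 of them, and the Cd3 limit removed a further 11. Of the 50 that remained, 44 had an Xcr1 UMI, 45 had a Clec9a UMI and 39 had both. In cells that should lack both genes such counts were rare: of 1459 deep cells without Ptprc, with a median of 26230 UMIs, 0.891% had any UMI of the pair and none had 2 (the interval reaches 0.253%). In the macrophage gate, cells with C1q at 0.5% of UMIs or more, 3.21% of 3515 cells had any UMI of the pair and 0.541% had 2 or more at a median of 5800 UMIs, and in the T cell gate it was 1.24% and 0.388% of 1288 cells at a median of 3709 UMIs. At the threshold itself, the 11 cDC1 with exactly 2 gate UMIs carried 6317 CPM of 25 cDC1 genes outside the gate, and the 39 with 3 or more carried 7927 CPM. The 88 cells with exactly 1 gate UMI that met the other limits carried 847 CPM. Wdfy4 was at 393 CPM just inside the threshold and 27.5 CPM just outside it, and Naaa was at 378 CPM inside and 28.6 CPM outside.

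The cells that the other limits removed were not alike. The 11 cells removed by a Cd3 UMI carried 6976 CPM of the cDC1 genes, near the members' 7587 CPM. The 24 cells removed by the C1q limit carried 3349 CPM, between the members and the 2377 CPM of the macrophage gate (here without its 19 cells that had 2 or more gate UMIs). Their Apoe, a macrophage lipoprotein gene, was at 12514 CPM against 453 CPM in the cDC1, and their Cadm1 was at 236 CPM against 493 CPM. Whether these 24 were mixed droplets was not tested.

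The comparison cells were cDC2, chosen in the same library by at least 2 UMIs of Cd209a, Flt3 and Clec10a together, no UMI of Xcr1 or Clec9a, and the same C1q and Cd3 limits. The gate gave 86 cells with a median of 6449 UMIs. It did not give pure cDC2: 25 cells had 4 or more UMIs of Ccr7 and Ccl22, the marks of mature dendritic cells, 4 had a UMI of Siglech, a plasmacytoid dendritic cell gene, and 25 had Cd74, the MHC class II invariant chain, below 0.3% of their UMIs. Of the gate's genes, Flt3 did not set it apart from cDC1, at 123 CPM in cDC1 and 159 CPM in the gate. Flt3 had UMIs in 36 of 50 cDC1 and 51 of the 86 cells. Cd209a had UMIs in 28 of the 86 and Clec10a in 35. Cells chosen by Flt3 alone need not be cDC2, and whether some were cDC1 without a captured Xcr1 or Clec9a UMI was not tested. The 25 cells low in Cd74 held 342388 of the gate's 725438 UMIs. They carried 3280 CPM of the list abundant in deep cells without Ptprc, against 1857 CPM over the whole gate and 1061 CPM in the cDC1. A restricted comparison therefore kept, in both groups, only cells with Cd74 at 0.3% of UMIs or more, under 4 UMIs of Ccr7 and Ccl22 and no Siglech UMI. It left 40 cDC1 and 46 cDC2-gate cells, with Flt3 at 112 CPM in the first and 69.2 CPM in the second. This restriction was chosen after the data were seen.

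Summed over cells, 3686 genes had at least 50 UMIs in both groups together and at least 50 CPM in either. Of these, 178 were at least 2-fold higher in cDC1 (4.83% of the genes compared) and 311 at least 2-fold lower (8.44%), on the scale of log2(CPM + 10). The calls and the medians of lists below are on that scale; the log2 ratio given for a single gene is that of its CPM, with its interval. In the restricted comparison 2521 genes passed the same filter, with 165 higher (6.55%) and 159 lower (6.31%). The counts of each list below are to be set beside these shares. A single cDC2-gate cell of 83522 UMIs held 11.5% of that gate's UMIs; without it 163 of 3651 genes were higher and 328 lower. The 2 comparisons shared 83 of the higher genes, 46.6% of the first list and 50.3% of the second, and 74 of the lower genes, 23.8% and 46.5%.

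**Figure D1:**
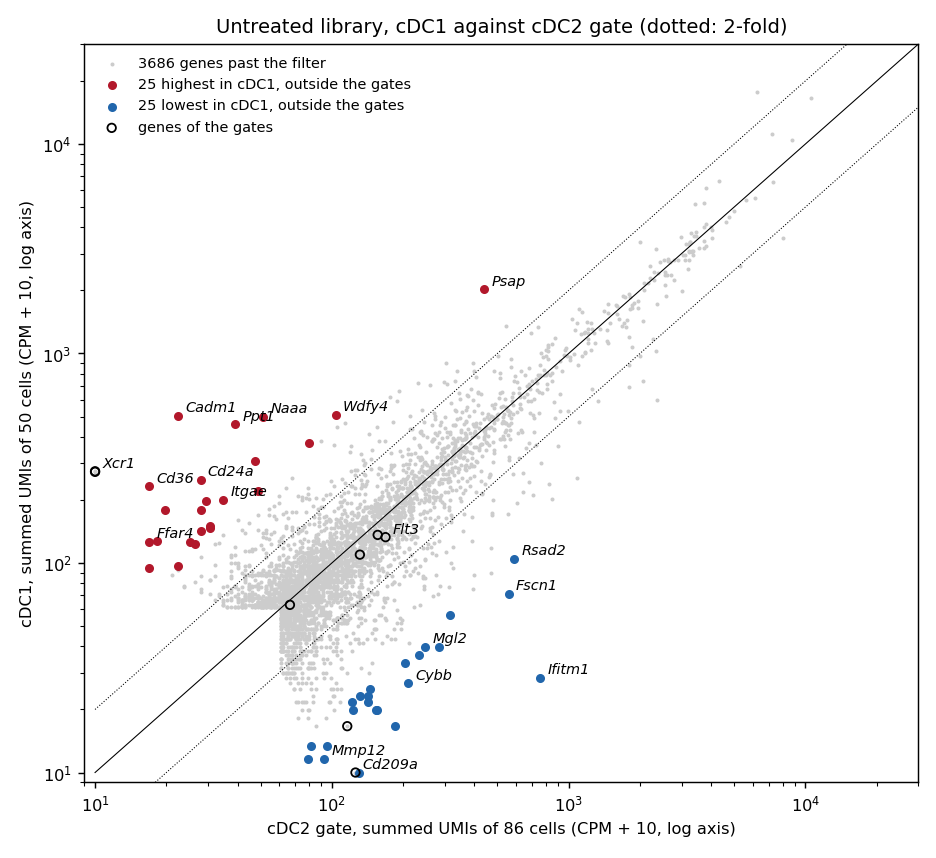
Summed expression of 3686 genes in the untreated library, cDC1 (50 cells, y axis) against the cDC2 gate (86 cells, x axis), in CPM + 10 on log axes; red marks the 23 genes outside the gates that had the highest ratios, blue the 23 that had the lowest, open circles the genes of the gates, and dotted lines 2-fold. Cadm1, Cd36, Ppt1 and Naaa lie farthest above the diagonal among the genes outside the gates, and Ifitm1 lies far below it.

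The gene lists were chosen with earlier results of these data known, so they are no independent check of the label. The label was set beside genes the gate had not used. Of 25 such cDC1 genes, 18 passed the filter, 15 were at least 2-fold higher in cDC1 and none was 2-fold lower, with a median log2 ratio of 1.71 against -0.06 over all genes compared. In the restricted comparison 14 of 17 were 2-fold higher, with a median of 1.60. The 7 genes below the filter (Tlr3, Clnk, Snx22, Sept3, Gcsam, Tlr11 and Gpr33) were each seen in more cDC1 than cDC2-gate cells; Tlr3 had 42 UMIs in 23 cDC1 and 2 UMIs in 2 cDC2-gate cells. Per cell, the summed level of the 25 genes ran from 1962 through a median of 8003 to 14164 CPM in cDC1, and from 227 through 2377 to 9528 CPM in the cDC2 gate. The groups overlapped.

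Cadm1, an adhesion molecule that cDC1 use as a surface mark, had the highest ratio of CPM + 10 outside the gate. It was at 493 CPM in cDC1 and 12.4 CPM in the cDC2 gate, a log2 ratio of 5.31 (4.37 to 6.46). It was found in 47 of 50 cDC1 and in 5 of 86 cDC2-gate cells. Cd36, a scavenger receptor for lipids and apoptotic cells, was at 222 and 6.89 CPM, a log2 ratio of 5.01 (3.75 to 6.66), and was uneven, with UMIs in 31 of the 50 cDC1. In the cDC2 gate it had 5 UMIs in 3 cells. Its log2 ratio was 3.65 (2.38 to 5.30) in the restricted comparison. Without the cDC2-gate cell with the most Cd36 UMIs it was 6.32 (4.44 to 9.38) in the full comparison. Among the lysosomal genes, Ppt1, a palmitoyl-protein thioesterase, had a log2 ratio of 3.96 (3.32 to 4.67) and Naaa, an acid amidase, of 3.57 (3.02 to 4.16). Naaa ranged over single cDC1 from 0 through a median of 504 to 2658 CPM, and the cDC2 gate had a median of 0 and a maximum of 563 CPM. Psap, the precursor of the saposins that assist lipid breakdown, was found in all 50 cDC1 at 447 to 4392 CPM with a median of 2031, and its median in the cDC2 gate was 329 CPM.

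**Figure D2:**
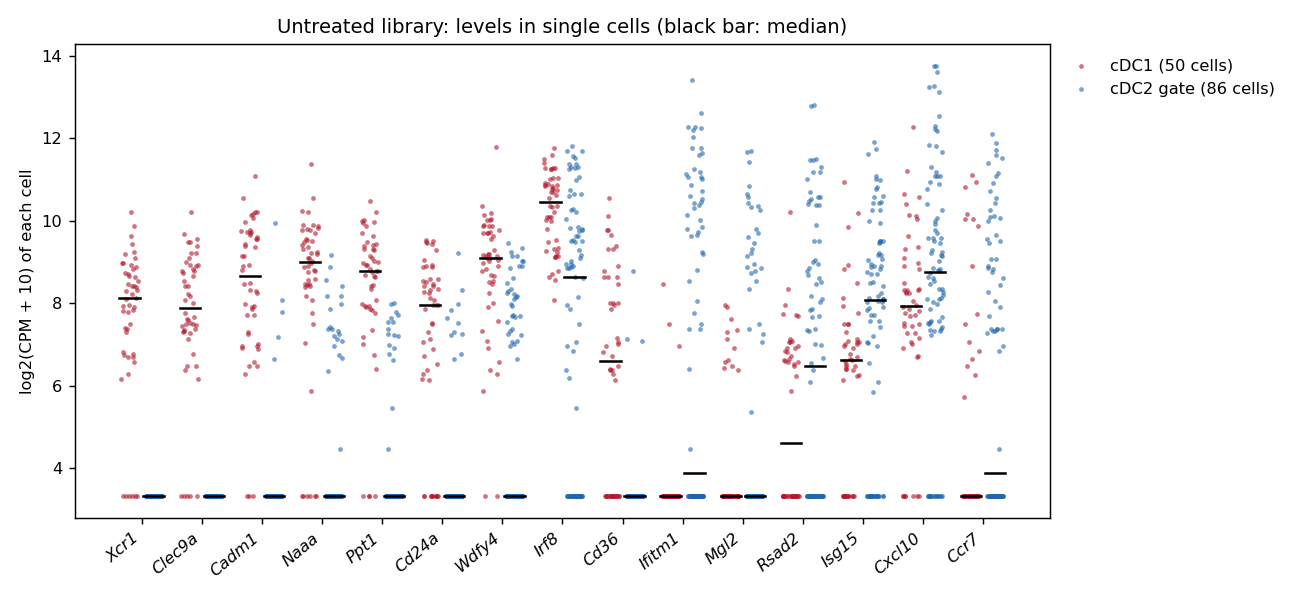
Levels of 15 genes in single cells of the untreated library, as log2(CPM + 10), for 50 cDC1 (red) and 86 cDC2-gate cells (blue); black bars are medians and the row at the bottom is 0 UMIs. Cadm1, Naaa, Ppt1, Cd24a and Wdfy4 have medians above 0 only in cDC1, and Ifitm1 is seen in 3 cDC1 and Mgl2 in 12.

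Part of the cross-presentation list was higher in cDC1. Of 22 genes, 18 passed the filter, 6 were at least 2-fold higher, 1 was lower and the median log2 ratio was -0.15. Over all genes compared 4.83% were higher and 8.44% lower, so the lower count did not exceed its share. In the restricted comparison 14 passed, 5 were higher, 2 (Cybb and Rac2) were lower and the median was 0.19. Those that were higher were Wdfy4, the BEACH-domain protein needed to cross-present cell-borne antigen, with a log2 ratio of 2.41 (2.03 to 2.82), Rab43 at 1.58 (1.25 to 1.92), Rab7b at 3.24 (2.40 to 4.20), Naaa, Ppt1, and Mpeg1, a pore-forming protein of the endosome, at 2.36 (1.92 to 2.83). With mature, plasmacytoid and low-Cd74 cells left out, Wdfy4 had a log2 ratio of 1.26 (0.85 to 1.69) and Rab43 of 0.97 (0.58 to 1.39). The gene that was lower was Cybb, the membrane subunit of the NADPH oxidase: 16.6 CPM in cDC1 against 200 CPM in the cDC2 gate and 586 CPM in the macrophage gate. Its UMIs came from 8 of 50 cDC1 and 47 of 86 cDC2-gate cells. Cyba, the other membrane subunit, differed little, at 719 and 593 CPM. In the full comparison the lysosomal protease genes Ctsb (163 and 232 CPM) and Ctsd (58.1 and 95.1 CPM) stayed within 2-fold. Ctsl did too, at a log2 ratio of -0.83, but was 2-fold lower without the cDC1 that held the most of its UMIs, at -1.18 (-1.57 to -0.79).

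Some transcription factors of dendritic cell development were higher in cDC1 and some were lower. Irf8 was in all 50 cDC1, from 260 through a median of 1400 to 3460 CPM; the cDC2 gate had a median of 384 CPM. The log2 ratio of the sums was 1.32 (1.15 to 1.50) and, in the restricted comparison, 2.14 (1.82 to 2.48). Batf3 had a log2 ratio of 1.36 (0.71 to 2.04), with UMIs in 33 of 50 cDC1. Rbpj, the effector of Notch signaling, and Bcl6 were also 2-fold higher, with log2 ratios of 1.48 (1.23 to 1.74) and 1.16 (0.74 to 1.58), the second under 2-fold without the cDC1 that held the most Bcl6 UMIs. Id2 stood below 2-fold in the full comparison, at a log2 ratio of 0.79 (0.55 to 1.02). On the cDC2 side, Zeb2 was at 66.4 CPM in cDC1 and 303 CPM in the cDC2 gate, and Irf4 had 1 UMI in cDC1 and 28 in the cDC2 gate. Klf4, with 219 and 485 UMIs, stayed within 2-fold in the full comparison, at a log2 ratio of -0.88. Without the cDC1 that held the most Klf4 UMIs it was -1.11 (-1.37 to -0.86). Tcf4, which specifies plasmacytoid cells, was 2-fold lower in the full comparison only. Over the list, 4 of 16 genes were higher and 2 lower, against 4.83% and 8.44% of all genes compared. The lower count was close to that share. Without the cDC2-gate cell of 83522 UMIs, 3 were higher and 2 lower.

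The promoter windows of Clec9a and of Rsad2, an antiviral gene low in cDC1, are given from RefSeq (GRCm38.p6, 250 bases before to 50 after the start, on the gene's strand, 5′ to 3′). Capitals mark matches to an interferon regulatory factor type motif, GAAANNGAA, or to an AP-1 type motif, TGANTCA, searched on both strands with overlaps kept. They are shown because IRF8 and BATF3, under which cDC1 arise, bind such motifs. Whether these factors act at these promoters was not tested. Clec9a lies at chr6:129408612-129408911 (plus strand) and Rsad2 at chr12:26456403-26456702 (minus strand).
Clec9a: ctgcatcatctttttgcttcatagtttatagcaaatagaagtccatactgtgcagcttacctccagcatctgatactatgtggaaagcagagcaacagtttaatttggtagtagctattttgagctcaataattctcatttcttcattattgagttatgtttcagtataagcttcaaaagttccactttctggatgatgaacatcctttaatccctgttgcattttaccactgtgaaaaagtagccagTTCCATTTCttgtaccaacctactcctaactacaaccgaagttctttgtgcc
Rsad2: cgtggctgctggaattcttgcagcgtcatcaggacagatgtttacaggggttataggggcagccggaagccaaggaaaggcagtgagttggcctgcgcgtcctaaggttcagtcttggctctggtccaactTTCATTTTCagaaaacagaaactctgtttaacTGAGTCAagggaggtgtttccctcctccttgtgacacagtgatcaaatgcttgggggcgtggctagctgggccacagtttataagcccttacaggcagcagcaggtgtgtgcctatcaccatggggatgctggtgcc
Of the 25 highest genes, 18 had a window. Among these 18, 3 held the IRF type motif, the gate gene Clec9a among them, and 1 held the AP-1 type motif. Of the 25 lowest, 18 had a window; 4 held the IRF type motif and 3 the AP-1 type motif. Over all 27025 windows the shares were 8.57% and 7.93%. A match is a run of letters, not a binding site, and a window without a match says nothing of the factors.

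The cDC2 genes outside the gate gave the converse. Of 20 genes, 7 passed the filter, 5 were at least 2-fold lower in cDC1 (Sirpa, Mgl2, Zeb2, Tmem176a and Tmem176b) and none was higher, with a median log2 ratio of -1.67, and -1.96 in the restricted comparison. Without the C1q limit on the cells the median was -0.59. Mgl2, a lectin, was at 29.9 CPM in cDC1 and 237 CPM in the cDC2 gate. Sirpa, the receptor for CD47 used to tell cDC2 from cDC1, had 7 UMIs in cDC1 and 45 in the cDC2 gate, close to the minimum of the filter. Ccl17 was at 380 and 261 CPM in the full comparison, but without the cDC1 that held 59 of its 229 UMIs the log2 ratio was 0.15 (-0.16 to 0.45), without the cDC2-gate cell with the most it was 1.06 (0.75 to 1.38), and its log2 ratio was -0.69 (-1.21 to -0.17) in the restricted comparison.

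Several leading genes were concentrated in the cDC1 to a degree that the gate did not set. The 50 cells were 0.356% of the kept untreated cells (interval 0.264% to 0.469%). They held 48.6% of all Ffar4 UMIs of the library, 35.9% of Hepacam2, 28.3% of Plet1, 28.2% of Cd24a, 24.7% of Itgae and 22.2% of Ccser1. Plet1 was not among the 25 highest genes, and had UMIs in 36 of 50 cDC1 and 18 of 86 cDC2-gate cells. Ffar4, a receptor for long-chain fatty acids, was found in 34 of 50 cDC1 and 5 of 86 cDC2-gate cells. Itgae encodes the CD103 integrin chain and was found in 42 and 11 cells. Cadm1 and Naaa were less confined: 7.26% and 6.90% of their UMIs lay in the cDC1, and the macrophage gate had 134 CPM of Cadm1. Other genes among the 25 highest were shared with macrophages, such as Rab7b (169 CPM in cDC1, 156 CPM in the macrophage gate) and Entpd1 (188 and 153 CPM).

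**Figure D3:**
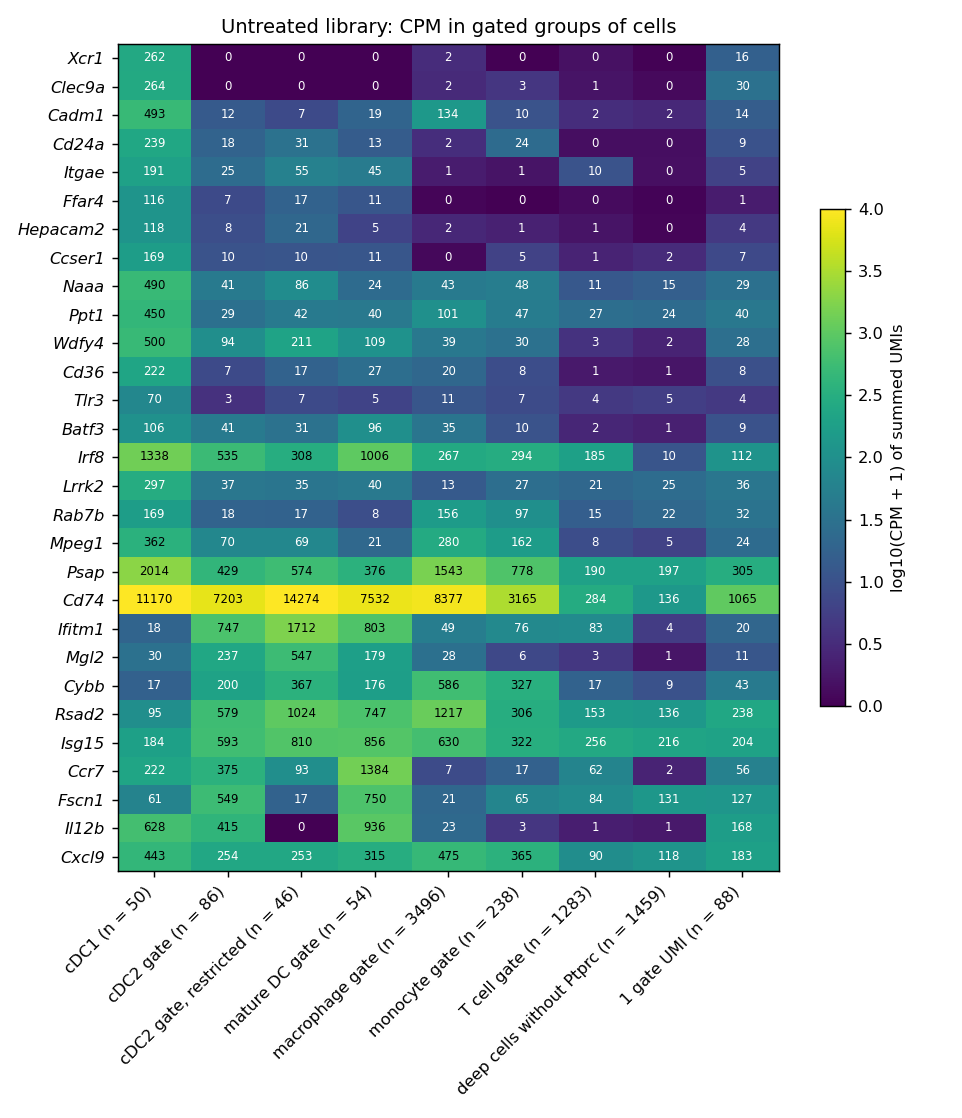
Summed CPM of 29 genes (rows) in 9 gated groups of cells of the untreated library (columns, with the number of cells), colored by log10(CPM + 1) with the CPM printed. Ffar4, Hepacam2, Itgae and Cd24a are at 116 to 239 CPM in cDC1 and at 55 CPM or less in the other groups, whereas Psap, Rab7b and Mpeg1 are also high in the macrophage gate.

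Uptake receptors differed by kind. Cd36 and Clec12a, an inhibitory lectin for uric acid crystals, were 2-fold higher in cDC1, as was Havcr2 (TIM-3), a phosphatidylserine receptor, at 327 and 109 CPM. In the restricted comparison the log2 ratio of Havcr2 was 0.30 (-0.10 to 0.71). Ly75 (DEC-205) did not differ in the full comparison by as much as its counting interval, with a log2 ratio of 0.27 (-0.08 to 0.62), but in the restricted comparison the log2 ratio was 2.24 (1.10 to 3.62). Fc receptors were few in cDC1: Fcgr1 had 3 UMIs, Fcgr3 8, Fcgr4 5 and Fcgr2b 13, against 28, 30, 20 and 42 in the cDC2 gate.

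Pattern-recognition genes were mostly below the filter, with 5 of 24 above it. The endosomal RNA receptor Tlr3 and the profilin receptors Tlr11 (9 UMIs and 1) and Tlr12 (7 UMIs and 0) were seen mainly in cDC1. The surface receptor Tlr2 had 0 UMIs in cDC1 and 13 in the cDC2 gate. Irf5 was in all 50 cDC1 and had a log2 ratio of 1.39 (1.02 to 1.76), but in the restricted comparison its ratio was 0.78 (0.31 to 1.28), and none of the 4 sensor genes past the filter there was 2-fold higher. Sting1 (Tmem173 in the files), the receptor MSA-2 acts on, was low and alike in level, with 22 UMIs (36.5 CPM) in cDC1 and 27 UMIs (37.2 CPM) in the cDC2 gate, a log2 ratio of -0.03 with an interval from -0.91 to 0.84. Cgas had 12 and 10 UMIs. The RNA helicase gene Ifih1, itself inducible by interferon, was lower in cDC1 at 110 and 316 CPM.

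Interferon-stimulated genes (ISGs) stood lower in cDC1. Of 40 genes, 29 passed the filter, 13 were at least 2-fold lower, 1 was higher and the median log2 ratio was -0.85. In the restricted comparison 12 of 21 were lower and none was higher, with a median of -1.06. Rsad2 was at 94.6 CPM in cDC1, 579 CPM in the cDC2 gate and 1217 CPM in the macrophage gate. In single cells Rsad2 ran from 0 through a median of 24.5 to 1177 CPM in cDC1 and from 0 through 78.8 to 7158 CPM in the cDC2 gate. Isg15 was at 184 and 593 CPM, Ifit1 at 31.5 and 203 CPM and Cxcl10 at 588 and 2350 CPM. Ifi205, the gene that was higher, is also on the list of cDC1 genes and had a log2 ratio of 1.95 (1.55 to 2.37). Irf7 and Trim30a were not among the lower genes, and the interferon receptor genes Ifnar1 and Ifnar2 stood within 2-fold. The summed ISG level of single cDC1 ran from 1426 through 3532 to 11893 CPM, and in the cDC2 gate from 932 through 5695 to 35014 CPM.

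Ifitm1 was the gene outside the gate with the lowest ratio of CPM + 10, at 18.3 CPM in cDC1 and 747 CPM in the cDC2 gate, a log2 ratio of -5.35 (-6.37 to -4.50). It had UMIs in 3 of 50 cDC1 and 43 of 86 cDC2-gate cells, and in the restricted cDC2-gate cells it reached 1712 CPM. Among the 23 lowest genes outside the gate, 8 were also 2-fold lower in the restricted comparison: Ifitm1, Mmp12, Cybb, Mgl2, Klrd1, Ms4a4c, Rsad2 and Il1r2. None of the others passed the filter in the restricted comparison. Some of them were as uneven there, such as Ms4a6d (1 UMI in cDC1 and 41 in the cDC2 gate) and Arap2 (5 and 37). Others had few UMIs left: Mreg, with a log2 ratio of -4.72 in the full comparison, had 0 and 2, Fscn1 10 and 5, and Col1a2 7 and 3. A single cDC2-gate cell held 75 of the 88 Col1a2 UMIs of that gate, and without it the log2 ratio of Col1a2 in the full comparison was -0.46 (-1.94 to 0.92). Among the 23 highest genes outside the gate, 21 were 2-fold higher in both comparisons; the exceptions were St3gal5 and E230029C05Rik, which did not pass the filter in the restricted comparison.

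**Figure D4:**
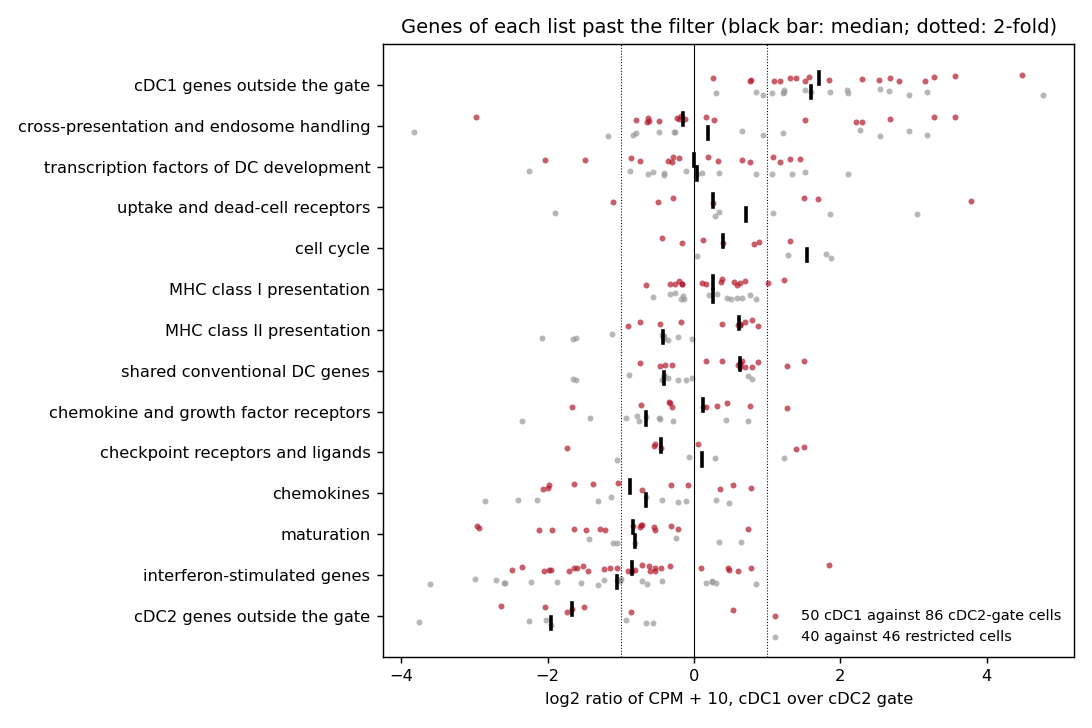
Log2 ratio of CPM + 10, cDC1 over the cDC2 gate, for the genes of 14 lists that passed the filter; red points compare 50 with 86 cells, gray points the 40 with 46 restricted cells, black bars are medians and dotted lines mark 2-fold. The medians of the cDC1 list, the ISG list and the cDC2 list keep their sign in both comparisons, and those of some lists, among them the MHC class II and shared dendritic cell lists, change sign.

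Antigen presentation genes showed how far the choice of comparison cells mattered. None of 12 MHC class II genes reached 2-fold in the full comparison, where their median log2 ratio was 0.61, and H2-Aa was at 5137 CPM in cDC1 and 3390 CPM in the cDC2 gate. In the restricted comparison the median was -0.42, 4 of 11 genes were 2-fold lower in cDC1 and the log2 ratio of H2-Aa was -0.42 (-0.51 to -0.33). Cd74 had chosen the restricted cells, and leaving out cells low in it removed more of the cDC2 gate than of the cDC1, so the restricted values of the class II genes and of Ctss are a description and support nothing. Ctss, the cathepsin that trims the invariant chain, was lower in cDC1 in both comparisons, with log2 ratios of -0.92 (-1.17 to -0.69) and -2.12 (-2.41 to -1.84). The accessory genes were divided in the full comparison: H2-DMa and H2-DMb1 had log2 ratios of 0.81 (0.57 to 1.05) and 0.89 (0.65 to 1.14), H2-Oa of -0.83 (-1.43 to -0.25), and the intervals of H2-DMb2 and H2-Ob reached 0. MHC class I genes were close to even, with a median of 0.26 in both comparisons; the immunoproteasome subunit gene Psmb9 and the peptide-loading chaperone gene Pdia3 were 2-fold higher in the full comparison at log2 ratios of 1.26 (1.02 to 1.51) and 1.04 (0.75 to 1.34), the second under 2-fold without the cDC1 that held the most Pdia3 UMIs. Cst3, which encodes the protease inhibitor cystatin C, was at 17658 CPM in cDC1 and 6231 CPM in the cDC2 gate, and its log2 ratio in the restricted comparison was 0.80 (0.74 to 0.86).

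Chemokine genes were lower in cDC1 as a list, with 6 of 12 at least 2-fold lower, none higher and a median log2 ratio of -0.88. Ccl4 was at 965 and 1988 CPM, under 2-fold without the cDC2-gate cell that held the most of it, and in the restricted comparison its log2 ratio was -2.42 (-2.58 to -2.25). Ccl5 had log2 ratios of -1.39 (-1.55 to -1.23) and -2.25 (-2.74 to -1.77), but a single Scrublet call held 337 of its 412 UMIs in cDC1. Without that cell, which the restricted comparison does not include, the log2 ratio in the full comparison was -3.82 (-4.17 to -3.48). Without the cDC2-gate cell that held 346 of that gate's 1301 Ccl5 UMIs Ccl5 was at 684 and 1372 CPM (log2 interval -1.17 to -0.84), just under 2-fold on the scale of CPM + 10. Ccl2 was 2-fold lower in the full comparison at -2.12 (-2.42 to -1.84), and at -1.52 (-1.83 to -1.21) without the cDC2-gate cell that held 225 of 609 UMIs, but its ratio was 0.51 (-0.03 to 1.07) in the restricted comparison. Cxcl9, a CXCR3 ligand for T cells, was not lower, at 443 CPM in cDC1 and 254 CPM in the cDC2 gate. Of cytokine genes, Il1b was lower in cDC1, at 584 and 1316 CPM, with single cDC1 from 0 through 201 to 5150 CPM.

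Of 8 genes of tryptophan metabolism 3 passed the filter, with Ahr 2-fold higher in cDC1 and Il4i1 2-fold lower. In the restricted comparison 1 gene of the list passed the filter and none was lower. Of the enzymes that open the kynurenine pathway, among them IDO1, which the study went on to inhibit, Ido1 and Tdo2 had 0 UMIs in the 602322 UMIs of the cDC1, and Ido2 had 1. A count of 0 allows up to 3 UMIs by a fixed floor of 3 counts, which is not one of the exact intervals. The cDC2 gate had 0 UMIs of all 3. Kynu, a kynureninase, had 31 UMIs in each group, and Il4i1, an amino acid oxidase that also acts on tryptophan, 13 and 46 UMIs. Ahr, the receptor for tryptophan-derived ligands, was at 437 and 95.1 CPM, with UMIs in 43 of 50 cDC1. Among checkpoint genes, Btla, whose ligand is HVEM, was at 194 and 67.5 CPM, and Cd274 (PD-L1) stood within 2-fold at 325 and 473 CPM.

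Within the cDC1, a small group carried the maturation program. Ccr7 and Ccl22 together had at least 1 UMI in 20 of the 50 cells, at least 4 in 10 and at least 30 in 4. Il12b, the p40 subunit of IL-12 that supports type 1 T cell responses, had 378 UMIs in 15 cDC1. The 4 cells with 30 or more UMIs of Ccr7 and Ccl22 had 93, 69, 74 and 41 Il12b UMIs and held 73.3% of them. They lay at the edge of the gate, with 2, 3, 2 and 2 gate UMIs against a median of 6 over the 50 cells. The next highest Il12b count, 38 UMIs, was in a cell with 2 UMIs of Ccl22. The 4 cells had no Naaa UMI, although only 2 of the 40 cells with under 4 UMIs of Ccr7 and Ccl22 lacked Naaa. They had 3, 0, 17 and 6 UMIs of the actin bundler Fscn1. The cell with 41 Il12b UMIs was a Scrublet call, had Cd74 at 0.055% of its UMIs, the lowest of the 50, and had 0 UMIs of Wdfy4 and Ppt1 and 1 of Cadm1.

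Taking all 10 cells with 4 or more UMIs against the other 40, Ccr7 and Ccl22 chose the cells and describe them. Outside these, Il12b was at 2520 and 146 CPM, a log2 ratio of 4.11 (3.73 to 4.51), and Ccl17 at 1334 and 137 CPM. Ccl5 was at 2962 and 104 CPM, but the Scrublet call with 41 Il12b UMIs held 337 of its UMIs; without that cell Ccl5 was at 228 CPM in the other 9, a log2 ratio of 1.13 (0.38 to 1.85), while that of Il12b was 4.06 (3.68 to 4.47). Ly75 was at 704 and 115 CPM and Cd274 at 696 and 231 CPM. Cd40 had 11 and 7 UMIs. Il4i1 had 13 UMIs in the 10 cells and 0 in the 40. Cd80 had a log2 ratio of 1.10 (0.40 to 1.78) and Cd86 of 0.61 (0.25 to 0.95). The identity genes Irf8, Wdfy4 and Ppt1 had log2 ratios of -0.11 (-0.37 to 0.15), -0.09 (-0.53 to 0.33) and -0.14 (-0.60 to 0.31) over the 10 cells. In the 4 cells with 30 or more UMIs of Ccr7 and Ccl22, a limit chosen after seeing the data, Ppt1 was at 72.6 CPM against 458 CPM in the 40, a log2 ratio of -2.66 (-4.55 to -1.28). Those of Irf8 and Wdfy4 there were -0.47 (-0.90 to -0.07) and -0.63 (-1.41 to 0.06). Xcr1, Naaa, and Rab7b, a regulator of late endosomes, were lower in the 10 cells, the last at 49.1 and 200 CPM. Across the gate comparison, Il12b had 301 UMIs in 15 of the 86 cDC2-gate cells and 0 in the 46 restricted ones.

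Cxcl9 had UMIs in 33 of the 50 cDC1, and 10 cells with 10 or more UMIs held 81.3% of its 267 UMIs. Of these 10 cells, 4 had 4 or more UMIs of Ccr7 and Ccl22. The highest counts were 45, 32 and 29 UMIs in cells that also had summed ISG levels of 9871, 11893 and 10558 CPM, among the highest of the 50, though the ISG list includes Cxcl9. These 3 cells had 5, 0 and 6 UMIs of Ccr7 and Ccl22.

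**Figure D5:**
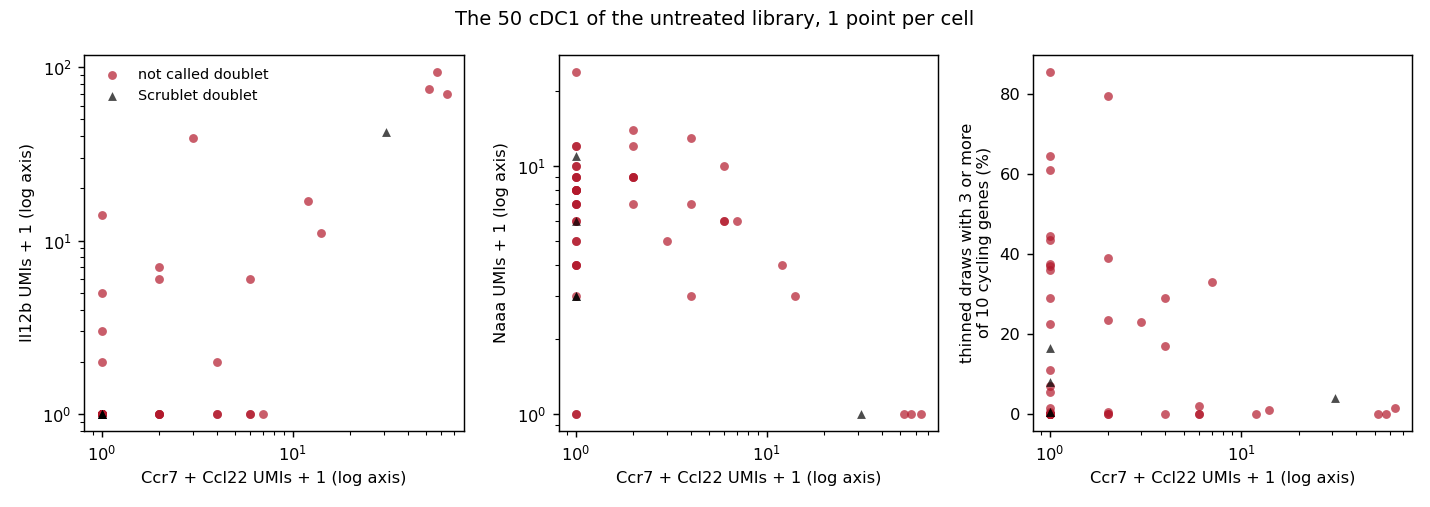
The 50 untreated cDC1, 1 point per cell (points overlap at low counts, triangles are Scrublet calls), by Ccr7 and Ccl22 UMIs + 1 on a log axis, against Il12b UMIs + 1, Naaa UMIs + 1 and the share of thinned draws with 3 or more of 10 cell cycle genes. The 4 cells at the far right have 41 to 93 Il12b UMIs and no Naaa, and no cell with 4 or more Ccr7 and Ccl22 UMIs was called cycling in more than 33% of draws.

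Part of the cDC1 expressed cell cycle genes. To set cells of different depth side by side, each was thinned to 1500 UMIs 200 times, and a cell was called cycling in a draw with UMIs of at least 3 of 10 genes. On average 7.65 of 50 cDC1 (15.3%, interval 7.17% to 29.1%) were called, between 3 and 13 over the draws. In the cDC2 gate it was 3.11% (0.734% to 9.97%) of 85 cells deep enough, in the macrophage gate 4.28% (3.63% to 5.03%) and in the T cell gate 9.52% (7.94% to 11.3%). The intervals of cycling shares are those of the mean count rounded to a whole number of cells. They leave out the spread over draws. Without thinning the shares were 70.0% in cDC1 and 27.9% in the cDC2 gate. No single cDC1 was called in 90% or more of draws, and 4 were called in at least 50%. Of the 7 cell cycle genes past the filter 1, Mki67, was 2-fold higher, and 3 of 4 were in the restricted comparison. That count depended on the cDC2-gate cell of 83522 UMIs: without it 4 of 6 were 2-fold higher (Mki67, Top2a, Birc5 and Tyms). Mki67 had a log2 ratio of 1.49 (0.88 to 2.13) and Top2a of 0.87 (0.48 to 1.27) over the cDC2 gate; the intervals of Pcna, at 0.14 (-0.34 to 0.61), and Cdk1, at -0.18 (-0.80 to 0.43), held 0. Without the deep cell Top2a was at 1.24 (0.79 to 1.69). Deep cells without Ptprc were cycling in 20.5% (18.4% to 22.6%), and the part of mixed droplets in the cDC1 value was not tested; with the 5 Scrublet calls left out the share was 16.3%.

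Markers of NK cells, T cells, neutrophils, B cells and endothelial cells were sparse in the 50 cells. Of 8 NK and 10 T cell markers, the lists summed to 29.9 and 28.2 CPM, with Trac and Ncr1 at 0 UMIs. The gate had taken only cells without Cd3 UMIs, so the T cell value describes the selection and supports nothing. Neutrophil genes summed to 48.1 CPM, nearly all Il1r2, with S100a8 and S100a9 at 0. Siglech and Ly6d were at 0 UMIs. Macrophage genes summed to 928 CPM against 837 CPM in the cDC2 gate, mostly Apoe and Aif1. They were in every cDC1, from 308 through a median of 939 to 2186 CPM, and in the cDC2 gate ran from 0 through 805 to 3086 CPM. Monocyte genes summed to 872 and 2007 CPM, and fibroblast genes, led by Col3a1, to 387 and 1179 CPM. Single cDC2-gate cells ran from 0 through a median of 287 to 19765 CPM of the fibroblast genes. In the restricted cDC2-gate cells these genes summed to 298 CPM. B cell genes summed to 51.5 and 71.7 CPM and endothelial genes to 8.30 and 27.6 CPM, and the epithelial keratin genes Krt8, Krt18 and Krt19 had 0 UMIs in both groups. The part of these genes in the comparisons was not tested.

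Under MSA-2 the gate found 2 cells among 13963, or 0.0143% (0.00173% to 0.0517%), against 0.356% in the untreated library, a log2 ratio of -4.64 (-7.72 to -2.71). No MSA-2 cell reached 2 gate UMIs and then failed a limit, so the limits did not lower the count. Of cells with at least 2 Ptprc UMIs, cDC1 were 0.981% (50 of 5098) in the untreated library and 0.0726% (2 of 2753) in the MSA-2 library. Set against the macrophage gate there were 50 cDC1 to 3515 macrophages and 2 to 929, a log2 ratio of -2.72 (-5.81 to -0.80). Each direction is that of 1 library against 1 other, and fewer cDC1 in the tumors, fewer recovered cells and lower Xcr1 and Clec9a per cell cannot be told apart.

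Over the whole kept library, Xcr1 had 323 UMIs (1.63 CPM) in the untreated library and 24 (0.118 CPM) in the MSA-2 library, and Clec9a 354 and 39. The untreated cDC1 held 48.9% and 44.9% of these untreated UMIs, so the sums in part restate the gate and support nothing. Of genes concentrated in cDC1 but not used by the gate, Ffar4 had 144 and 10 UMIs, a log2 ratio of -3.89 (-4.98 to -2.97), Hepacam2 198 and 12, and Itgae 466 and 105. These genes were named for their share in the untreated cDC1, 48.6% for Ffar4, so their sums also describe and support nothing. Among less confined cDC1 genes, the log2 ratios were -3.73 (-3.90 to -3.57) for Cadm1, -1.29 (-1.40 to -1.18) for Wdfy4 and -0.80 (-0.87 to -0.73) for Naaa. Il12b had 2116 and 115 UMIs, a log2 ratio of -4.25 (-4.53 to -3.97). Xcl1, the XCR1 ligand made by NK and CD8+ T cells, was at 27.0 and 4.11 CPM. Cd24a, of whose UMIs the untreated cDC1 held 28.2%, went the other way, at 2.58 and 6.88 CPM.

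The 2 MSA-2 cells were unlike each other. The first had 30649 UMIs, 4 gate UMIs, Cd74 at 0.378% of UMIs and 2414 CPM of the genes abundant in deep cells without Ptprc; it was not a Scrublet call. The second had 6764 UMIs, 3 gate UMIs and Cd74 at 1.17%. They had 12 and 4 Wdfy4 UMIs, 7 and 13 Naaa UMIs, 11 and 20 Irf8 UMIs, and 6 and 0 Cadm1 UMIs. Their summed ISG levels of 11844 and 10792 CPM lay at the upper end of the range of the 50 untreated cells and above the median of 3532 CPM, and 2 cells carry no estimate of spread. Neither had a UMI of Ccr7, Ccl22, Il12b or Ido1. The MSA-2 cDC2 gate could not serve as a comparison: of its 27 cells, 24 had Cd74 below 0.3% of UMIs.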

How the data were processed

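Single-cell RNA libraries (3' chemistry with UMIs) were available for 1 untreated and 1 MSA-2 sample, each a pool of tumors from 3 mice. The deposited values are raw UMI counts per gene and barcode that the authors made with Cell Ranger (7.0.0 in the submitters' processing notes, 7.0.1 in the matrix header) on mm10; the notes also name Seurat 4.3.0, whose output was not used here. The files held 14386 and 14617 barcodes. Barcodes with fewer than 500 genes or more than 20% mitochondrial UMIs were removed, leaving 14039 and 13963 cells with medians of 8775 and 9706 UMIs.

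Counts were summed over the cells of a group and compared as CPM, using scipy 1.17.1, pandas 2.3.3 and numpy 2.4.6 (Python 3.11.15). With 1 library per condition, and with groups chosen by their own counts, no test was run. Genes with at least 50 UMIs in both groups together and 50 CPM in either were compared on log2(CPM + 10), and 2-fold counted as higher or lower. Intervals are exact at 95%: shares have Clopper-Pearson bounds, and ratios of sums have bounds from the conditional binomial. Genes named by rule were the 25 highest and 25 lowest, the gate genes and the members of the gene lists; other genes of the text, those of the mature cells among them, were chosen after their values were seen. The cDC1 rule and the lists were chosen with earlier results of these data known. Doublets were scored with Scrublet in scanpy 1.11.5 and kept in the main values. The summing and calling of genes was tested on simulated counts. Alternatives varied the gate, the cell and gene filters, doublets, thinning and the denominator.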

Additional observations from a re-analysis of the deposited data

How the results depend on the processing

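No paired analysis was possible because each condition is 1 library, and for the same reason no replicate could be left out. The log2 ratio of the cDC1 share, MSA-2 over untreated, lay between -5.12 and -2.72 over the 10 alternatives run, of which 3, with other denominators (2 counts of cells with Ptprc UMIs, and the macrophage gate, which gave -2.72), were chosen after seeing the data; over the other 7 it lay between -5.12 and -4.28. Without the C1q limit the untreated share was 0.499%, and the median log2 ratio of the cDC2 genes was -0.59. With at least 20 UMIs and no CPM minimum, 280 genes were higher and 533 lower in cDC1. In the restricted groups, an alternative chosen after seeing the data, 159 were lower. The median of the cDC1 genes outside the gate stayed between 1.60 and 2.08 over its 14 alternatives. The cycling share of cDC1 was 31.3% when 2 of 10 genes sufficed and 70% without thinning; the cause of these shifts was not tested. Leaving out the cDC1 with the most Ccl5 UMIs, an alternative also chosen after seeing the data, moved the log2 ratio of Ccl5 from -1.39 to -3.82. Leaving out the cell with the most UMIs of a gene, in either group, ended the 2-fold call or took the gene below the filter for 16 of 107 called genes of the lists and the named genes, and reversed 0. It moved ratios both ways: Ifitm1 to -7.17 and Cadm1 to 6.47, but Ifit1 to -3.40 or -2.14, Gpc6 to -2.88 and Col1a1 to -0.29, and the Ccl5 call was among those ended. Depth limits the low genes: 50 cells with 602322 UMIs in all leave single genes under about 50 UMIs with wide intervals, and the 2 MSA-2 cells allow no comparison of levels.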
